A study of Drosophila melanogaster with 9 samples.

Results

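Whole-fly transcript levels were compared between F2 flies descended from an obese grandfather through his daughter, called GP/M, and control flies without obese forebears, called WT. All 6 libraries came from adults of Drosophila melanogaster, wild-type in genotype on a Canton S background and 10 to 11 days old, so no fly in either group carried the mutation itself. The obese forebears were mutants of AkhR, per the title of the series. GP/M 1, 2 and 3 had an obese grandfather and, in the labels, a heterozygous mother, and WT 1, 2 and 3 had neither. The series describes its replicates as independent both in biology and in experiment, and each number marks an experiment that gave a set of libraries, so GP/M 1 and WT 1 are called set 1, and likewise sets 2 and 3. The genes described are those whose raw counts over the 6 libraries averaged 50 or more. There were 11742 of them among 13087 genes listed for this comparison, and the choice used the mean over both groups and no difference between them. By the classes in the deposited table they included 11498 protein-coding genes, 195 non-coding RNA genes, 36 pseudogenes, 10 microRNA precursors and 3 small nucleolar RNA genes. CG9925, CG14082 and CG34234, at a mean of exactly 50 counts, were just inside, and CG34180 at 49.8 and CcapR at 49.7 counts were just outside.

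Adipokinetic hormone, the insect counterpart of glucagon, is secreted by neurosecretory cells and acts through its receptor AkhR on the fat body, the organ that does the work of liver and adipose tissue. There it raises cyclic AMP and leads lipases such as Bmm to break down stored triglyceride, and flies without the receptor store excess fat. Offspring can differ in metabolism according to the diet or fat stores of a parent or grandparent without inheriting a mutation, and the comparison asks whether such a difference reaches the transcripts of grandchildren when the link is the F1 daughter.

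Each library held 21777189 to 25698385 gene counts, and the 11742 genes took 99.9% of them. Levels are given as CPM, counts scaled to library size with trimmed-mean factors. No library was a copy of another. The flies' sex is not in the labels. Transcripts of the male accessory gland were present in every library. Their summed level over the 62 genes listed was 16677 to 18245 CPM in GP/M and 16194 to 18866 CPM in WT. The yolk protein gene Yp1 was at 2.02 to 3.27 CPM in GP/M and 1.75 to 5.17 CPM in WT. RNA came from lysates of whole flies, so fewer cells of a type and less RNA per cell cannot be told apart. How many flies went into a library is not stated in the labels.

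Of the 12849 genes tested, 3 were higher in GP/M at an adjusted p under 0.05 and 0 were lower, by edgeR's quasi-likelihood test with the set as a block and Benjamini-Hochberg adjustment. That is 0.0233% of the genes tested, and all 3 are among the 11742 (0.0255%). They were TotC and TotA, genes of secreted stress-induced peptides of the Turandot family, and h, the gene of the transcriptional repressor Hairy. Before adjustment, 179 genes were higher (1.39%) and 212 lower (1.65%) at p under 0.05, or 3.04% in either direction, a share below the nominal rate of that threshold. Of the 11742 genes, 157 were higher (1.34%) and 190 lower (1.62%) at that level, 2.96% in all. The authors' deposited table has 4 of 13087 genes past an adjusted p of 0.05, all higher in GP/M (0.0306%), and 0 lower. These were TotC, TotA and h with ACC, the gene of acetyl-CoA carboxylase. DESeq2 with the same block called the same 4 genes, limma-voom called TotC and TotA, and both called 0 lower genes.

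The 3 calls depend on the block and on the sets. Without the block, and in a fit of all 9 libraries with the block, TotC, TotA and h kept their fold changes and had adjusted p of 0.999 or more (edgeR). Without set 2, TotC and TotA had an adjusted p of 0.104 and h of 0.416, and without set 3 h had 0.188.

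TotC (FBgn0044812, chromosome arm 3R) was at 227, 133 and 174 CPM in GP/M 1, 2 and 3, against 157, 103 and 139 CPM in WT 1, 2 and 3. In every set the GP/M library was above its WT partner, at 1.45, 1.30 and 1.25-fold in sets 1, 2 and 3, although GP/M 2 lay below 2 of the WT libraries and the groups overlapped. The fitted difference was 1.33-fold, with a 95% interval of 1.25 to 1.42 (adjusted p = 0.00353, edgeR). TotA (FBgn0028396, 3R) was at 536, 344 and 487 CPM in GP/M 1, 2 and 3, against 401, 284 and 396 CPM in WT 1, 2 and 3. It followed the same order, highest in set 1 and lowest in set 2 in both groups, at 1.34, 1.21 and 1.23-fold in sets 1, 2 and 3 and 1.26-fold overall (interval 1.19 to 1.33, adjusted p = 0.00406, edgeR). Here too the groups overlapped, as GP/M 2 at 344 CPM lay below WT 1 and WT 3. Set 2 was below sets 1 and 3 in both groups, while WT 1 and WT 3 were nearly equal.

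**Figure D1:**
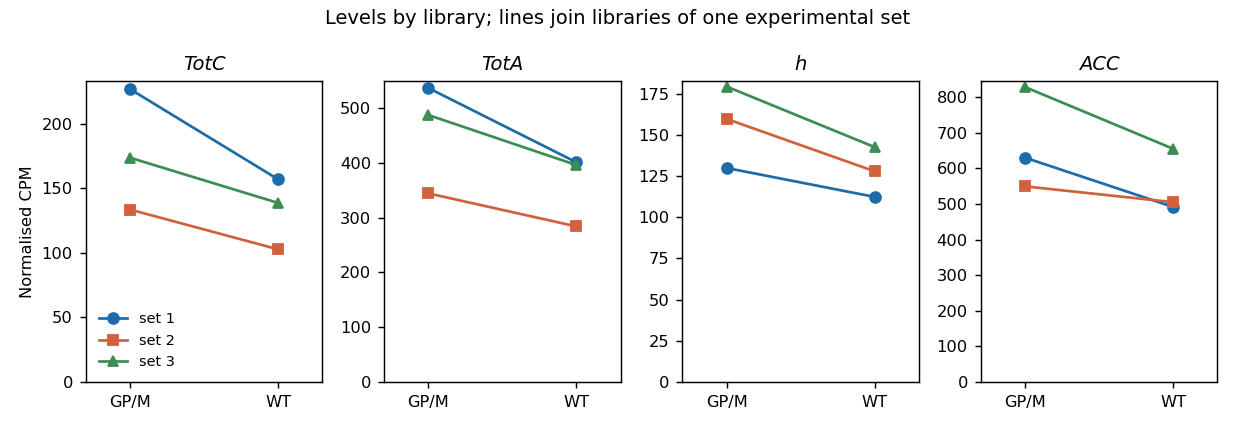
Normalised CPM (vertical axes, from 0) of TotC, TotA, h and ACC in the GP/M and WT library of each set, with a line joining the libraries of a set. Every line is higher at GP/M, and in each panel the values of the groups overlap: for TotC, GP/M 2 at 133 CPM lies below WT 1 at 157 CPM.

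Turandot peptides are released from the fat body into the hemolymph after heat, injury, infection or other stress, partly under JAK-STAT signalling. Of the family's 5 genes listed, 4 reached the count minimum, and the fitted difference was above 1 in all 4. Their median was 1.30-fold, against 1.00-fold over all 11742 genes. TotC and TotA, called from these same values, are 2 of the 4, so the median is no further support for them. TotX, which lies close to TotA and TotC on 3R in the reference annotation, was at 43.2, 45.2 and 40.5 CPM in GP/M 1, 2 and 3, against 32.2, 35.1 and 41.2 CPM in WT 1, 2 and 3. It was higher in sets 1 and 2 and level in set 3, at 1.34, 1.29 and 0.984-fold, and did not pass (adjusted p = 0.999, edgeR). TotM, on arm 2L, was at 38.2, 26.4 and 22.6 CPM in GP/M 1, 2 and 3, against 30.2, 12.5 and 21.0 CPM in WT 1, 2 and 3. Its GP/M value was above its partner in all 3 sets, but most of the difference came from set 2, at 1.26, 2.10 and 1.08-fold, and the interval of 0.772 to 2.51 reached below 1. TotB was scarce, at 0.431 to 0.666 CPM in GP/M and 0.125 to 0.646 CPM in WT. Family members are alike in sequence, and the labels and headers do not say how reads mapping to more than 1 gene were counted. Of the genes beside the cluster, CG10830, next to TotC, had a log2 difference of -0.08, and CG3822, next to TotA, one of 0.05.

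Of 7 JAK-STAT pathway genes, 0 had an unadjusted p under 0.05 (2.96% of all 11742 genes did). The transcription factor gene Stat92E was at 0.969-fold (interval 0.918 to 1.02), the receptor gene dome at 0.968-fold, the kinase gene hop at 0.995-fold and the feedback inhibitor gene Socs36E at 1.06-fold (interval 0.96 to 1.16). The cytokine gene upd3 was below the count minimum, at 0.427, 0.431 and 1.18 CPM in GP/M, against 0.399, 0.208 and 0.415 CPM in WT.

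The h gene (FBgn0001168, 3L) encodes Hairy, a basic helix-loop-helix repressor known for embryonic segmentation and, in adults, for repression of metabolic genes under low oxygen. It was at 129.9, 159.7 and 179 CPM in GP/M 1, 2 and 3, against 112, 128 and 143 CPM in WT 1, 2 and 3. Set 3 was highest and set 1 lowest in both groups, and within each set GP/M was the higher, at 1.16, 1.25 and 1.26-fold. The fitted difference was 1.22-fold (interval 1.15 to 1.30, adjusted p = 0.0287, edgeR), and the groups overlapped. Hairy's partners and the hypoxia genes listed with it had no called gene. The co-repressor gene gro was at 0.988-fold (interval 0.917 to 1.07), CtBP at 1.01-fold, and sima, the gene of the fly hypoxia-inducible factor, at 1.03-fold (interval 0.932 to 1.13). Of the 8 genes of that list, h alone had an unadjusted p under 0.05 (2.96% of all 11742 genes did). Among its neighbours on 3L, Cpr66D, a cuticle protein gene, was at 1.16-fold and Arr2, a photoreceptor arrestin gene, had a log2 difference of -0.01.

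ACC (FBgn0033246, 2R), whose product makes malonyl-CoA in the committed step of fatty acid synthesis, was at 630.1, 549 and 828 CPM in GP/M 1, 2 and 3, against 492, 505 and 655 CPM in WT 1, 2 and 3. GP/M was higher in each set, at 1.28, 1.09 and 1.26-fold, with the smallest difference in set 2. The fitted difference was 1.21-fold (interval 1.13 to 1.29), and it did not pass in edgeR (adjusted p = 0.128), while it passed in DESeq2 with the same block (adjusted p = 0.00949) and in the authors' deposited table (0.00802). Of the 17 genes of fatty acid synthesis, ACC included, 1 was higher and 1 lower at an unadjusted p under 0.05. Of all 11742 genes, 1.34% were higher and 1.62% lower at that level. The median of the list was 0.999-fold. The higher one was ACC, and no other gene of the list had a difference of its size. The fatty acid synthase gene deposited as CG3523 was at 1978, 2082 and 2460.1 CPM in GP/M 1, 2 and 3, against 1867, 2308 and 2199 CPM in WT 1, 2 and 3, 1.06, 0.902 and 1.12-fold in the 3 sets and 1.02-fold overall (interval 0.939 to 1.11). ATPCL, the gene of ATP citrate lyase, was at 0.99-fold (interval 0.936 to 1.05) and AcCoAS, the acetyl-CoA synthetase gene, at 0.987-fold. Zw, which encodes glucose-6-phosphate dehydrogenase, had no overlap between the groups but a difference of only 1.04-fold (unadjusted p = 0.156, edgeR).

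None of 15 genes of the adipokinetic hormone axis and lipid droplets had an unadjusted p under 0.05, and their median was 1.01-fold. Of all 11742 genes 2.96% had such a p, so 0 of 15 does not set this list apart. AkhR itself was at 78.8, 98.8 and 80.8 CPM in GP/M 1, 2 and 3, against 77.7, 86.5 and 92.4 CPM in WT 1, 2 and 3. The groups overlapped, GP/M was above WT in sets 1 and 2 and below it in set 3, and the interval of the fold change was 0.91 to 1.11. The hormone gene Akh was at 12.5, 10.7 and 10.7 CPM in GP/M 1, 2 and 3, against 12.2, 12.8 and 12.5 CPM in WT 1, 2 and 3, lower in sets 2 and 3 and level in set 1, 0.905-fold overall (interval 0.801 to 1.02). The lipase genes bmm and Hsl, the second deposited as CG11055, were at 1.03-fold (interval 0.965 to 1.10) and 1.01-fold (interval 0.942 to 1.08). The lipid droplet coat genes Lsd-1 and Lsd-2 were at 1.03-fold and 1.00-fold, and mdy, a diacylglycerol acyltransferase gene of triglyceride synthesis, at 0.962-fold. For each of these 7 genes, a difference of 1.25-fold in either direction lay outside the 95% interval.

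The 15 genes with the smallest p in each direction differed in the same direction in all 3 sets, at 1.10-fold to 1.45-fold for the higher ones and 0.697-fold to 0.919-fold for the lower ones, called genes included. The groups did not overlap for 5 of the 15 higher and 8 of the 15 lower genes. Among the 11742 genes as a whole, 2.19% were higher and 2.47% lower in GP/M with no overlap. The 15 in each direction were picked by p from the same values, which favours a shared direction and groups apart. The contrast with all genes is therefore no further support for them.

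Act88F, the actin gene of the indirect flight muscle, was at 38.7, 29.9 and 42.4 CPM in GP/M 1, 2 and 3, against 30.5, 23.3 and 37.4 CPM in WT 1, 2 and 3. It was higher in each set, 1.22-fold overall (interval 1.13 to 1.33, adjusted p = 0.285, edgeR). The gene of asparagine synthetase was at 49.1, 39.1 and 40.5 CPM in GP/M 1, 2 and 3, against 37.5, 35.8 and 32.2 CPM in WT 1, 2 and 3, which left the groups apart, at 1.22-fold (adjusted p = 0.473, edgeR). CG34423 was at 14.8, 13.5 and 19.4 CPM in GP/M 1, 2 and 3, against 11.6, 11.8 and 11.7 CPM in WT 1, 2 and 3. Its WT values were nearly equal and all GP/M values lay above them, but the difference of 1.35-fold (adjusted p = 0.674, edgeR) rested largely on GP/M 3, and without set 3 it was 0.27 on the log2 scale, against 0.43 with it. Fhos, a formin gene that acts on actin, was at 1.14-fold (adjusted p = 0.678, edgeR), with 1.22, 1.05 and 1.16-fold in the 3 sets.

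Further genes with a small unadjusted p all had an adjusted p of 0.999 by edgeR. The serine protease genes CG18180, CG18179 and Jon99Fi were at 1.16-fold, 1.27-fold and 1.27-fold. In the list of 31 gut proteases, lipases and lysozymes that holds Jon99Fi, 3 genes were higher and 2 lower at an unadjusted p under 0.05. Of all 11742 genes, 1.34% were higher and 1.62% lower at that level. In the gut list 19 genes were above WT and 12 below (6019 and 5723 of all genes were), and the median was 1.02-fold. The glutathione transferase gene GstD8 was at 1.22-fold, and Adh, the gene of alcohol dehydrogenase, was at 4943, 4085 and 4224 CPM in GP/M 1, 2 and 3, against 4564, 3824 and 3899.7 CPM in WT 1, 2 and 3. The difference of Adh was small and nearly the same in each set, at 1.08, 1.07 and 1.08-fold, with the groups overlapping. CG9192 was at 4.27, 4.14 and 4.31 CPM in GP/M 1, 2 and 3, against 2.99, 3.17 and 3.14 CPM in WT 1, 2 and 3, where the groups lay apart at 1.37-fold. swa, known for the placing of bicoid RNA in the oocyte, was scarce and at 1.45-fold, and nimC2, a Nimrod receptor gene of blood cells, at 1.22-fold. CG11671 had the largest fold change of the genes higher in all 3 sets at an unadjusted p under 0.05, at 2.29, 1.72 and 4.94 CPM in GP/M 1, 2 and 3, against 1.75, 1.58 and 1.48 CPM in WT 1, 2 and 3. The values of the groups overlapped and GP/M 3 stood alone, with 1.29, 1.08 and 3.22-fold over the sets and 1.79-fold overall (interval 1.10 to 2.92).

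The lower gene with the smallest p was CG10863, an aldo-keto reductase gene on 3L, at 277, 260.5 and 267 CPM in GP/M 1, 2 and 3, against 311, 291 and 305 CPM in WT 1, 2 and 3. Every GP/M library was below every WT library and the sets gave 0.892, 0.895 and 0.875-fold, a narrow range, yet the adjusted p was 0.473 (edgeR; 0.887-fold, interval 0.841 to 0.936). CG6770 was at 971, 1042 and 1037 CPM in GP/M 1, 2 and 3, against 1144, 1089 and 1172 CPM in WT 1, 2 and 3, again with the groups apart, at 0.896-fold. Muc30E, a mucin gene, was at 0.697-fold, CG14529, a neprilysin-like peptidase gene now named Nepl17, at 0.742-fold, and CG13827, the peroxisome gene Pex11c, at 0.848-fold. CR43634, deposited as a non-coding RNA gene, was at 2.45, 2.50 and 2.74 CPM in GP/M 1, 2 and 3, against 2.99, 3.63 and 3.83 CPM in WT 1, 2 and 3, with the groups apart at 0.739-fold, and CR43466 and CG30280 were at 0.741-fold and 0.748-fold. Of cytochrome P450 genes, Cyp4e2 was at 0.907-fold and Cyp4g1, which makes cuticular hydrocarbons in oenocytes, was at 20962, 20789 and 20881 CPM in GP/M 1, 2 and 3, against 23880.4, 21838 and 21284 CPM in WT 1, 2 and 3. The Cyp4g1 groups did not overlap, although the WT excess was mostly in set 1, with 0.878, 0.952 and 0.981-fold over the sets (unadjusted p = 0.0243, edgeR).

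**Figure D2:**
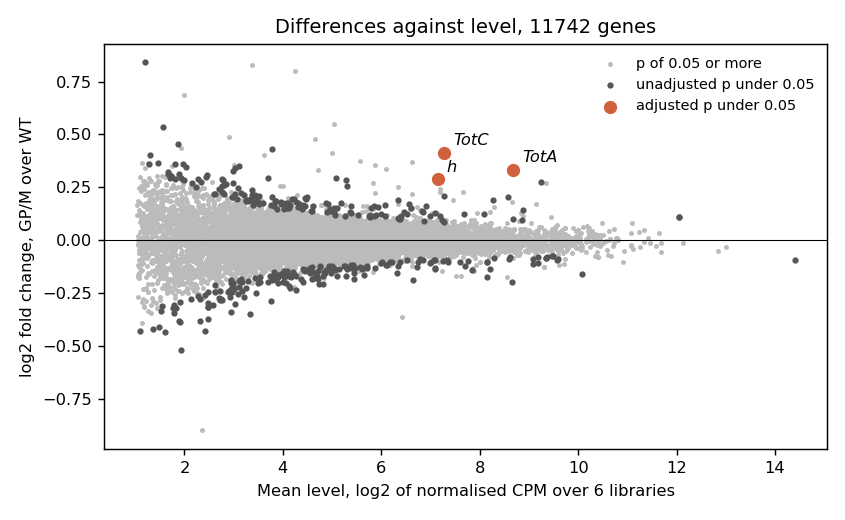
Fitted log2 fold change of GP/M over WT (vertical axis) against mean level (horizontal axis, log2 of normalised CPM) for 11742 genes, with dark points for an unadjusted p under 0.05 and large orange points for an adjusted p under 0.05. The cloud is centred on 0 and narrows with level, and TotC, TotA and h stand above it at levels where few genes differ by as much.

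In the fit with the block, most genes were close to 1 with little room for a larger difference. The intervals below hold for that fit, with a common biological coefficient of variation of 4.67%, against 7.23% without the block. From the 5% to the 95% quantile, the fitted fold changes of the 11742 genes ran from 0.922 to 1.09. Only 35 genes were over 1.25-fold higher and 19 over 1.25-fold lower, and 4 and 1 passed 1.5-fold. At 2-fold there were 0 genes in either direction. The 95% interval lay within 1.25-fold on both sides for 86.9% of the genes, within 1.5-fold for 98.5% and within 2-fold for 99.6%. Precision followed the level: the median half-width of the interval was 1.19-fold for the 2049 genes with a mean of 50 to 200 counts and 1.06-fold for the 412 genes with 10000 counts or more.

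The experimental sets did not repeat each other gene by gene. Of the 11742 genes, 1202 were higher in GP/M in all 3 sets (10.2%) and 1359 lower (11.6%), so 21.8% kept a direction. Across the genes, the difference in set 1 had a Pearson correlation of -0.06 with that in set 2 and -0.06 with that in set 3, and sets 2 and 3 gave -0.08. These values are across genes, which are not independent replicates, and the sets share no library. Among the 4802 genes averaging 1000 counts or more the values were -0.14, -0.07 and -0.26, so deeper counting did not bring the sets closer. The SD of the differences was 0.14, 0.14 and 0.16 on the log2 scale in sets 1, 2 and 3.

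**Figure D3:**
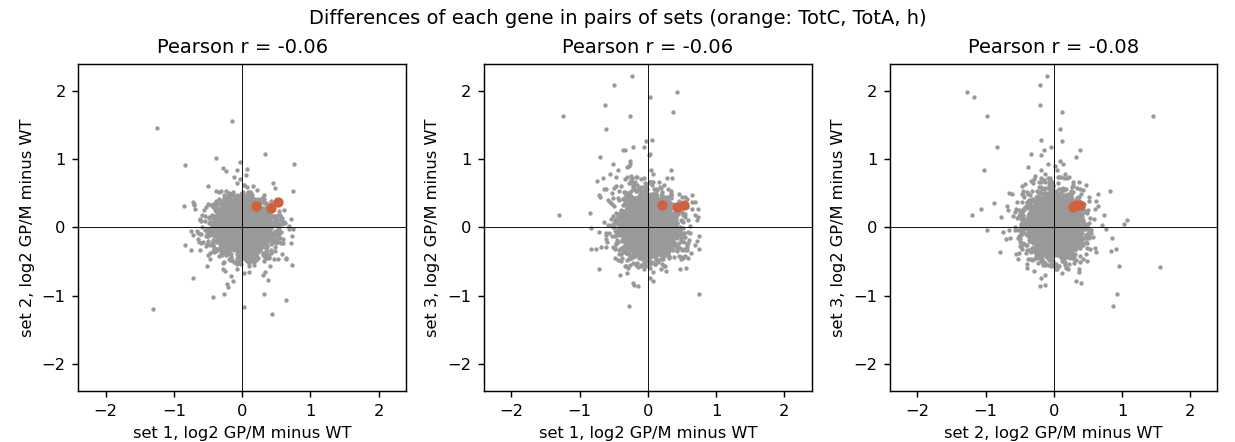
Log2 difference of GP/M minus WT in one set against the same in another, with a point for each of 11742 genes and TotC, TotA and h in orange. The clouds show no slope (Pearson r of -0.06, -0.06 and -0.08), and the 3 orange genes are above 0 in every set.

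Few differences over 2-fold were shared between sets. In set 1, 0 genes were over 2-fold higher and 2 over 2-fold lower, in set 2 there were 4 and 5, and in set 3 there were 18 and 1. Of these genes, 1 in set 1, 2 in set 2 and 1 in set 3 were over 2-fold the same way in another set, namely GstD2 in sets 1 and 2 and CG14499 in sets 2 and 3. Antimicrobial peptides, which the fat body secretes under Toll and Imd signalling, made up 6 of the 18 in set 3. The diptericin gene Dpt was at 21.0, 33.6 and 204.7 CPM in GP/M 1, 2 and 3, against 20.6, 75.3 and 54.6 CPM in WT 1, 2 and 3. GP/M 3 was the highest library by far, GP/M 1 and WT 1 were alike and lowest, and in set 2 the order was turned round, so the sets gave 1.02, 0.446 and 3.74-fold. The cecropin gene CecA2 was at 10.3, 11.9 and 54.7 CPM in GP/M 1, 2 and 3, against 12.2, 12.8 and 11.6 CPM in WT 1, 2 and 3, so GP/M 3 stood alone above the other 5 libraries. AttB, an attacin gene, had the same form, at 17.5, 21.4 and 87.2 CPM in GP/M 1, 2 and 3, against 24.8, 24.6 and 20.5 CPM in WT 1, 2 and 3. AttA, AttC and DptB were likewise over 2-fold higher in set 3, at 3.46-fold, 2.27-fold and 3.09-fold.

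Dpt, Dro and DptB were the lowest of the family in set 2. Over the 37 antimicrobial and microbe recognition genes the median log2 difference was -0.14, 0.01 and 0.15 in sets 1, 2 and 3, and 7, 19 and 29 of them were above WT in those sets. Only 1 of the 37 was higher in GP/M in all 3 sets (2.70%, against 10.2% of all genes), and 0 were called.

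Transcripts of the mitochondrial genome split the sets another way. All 9 such genes were above WT in set 2 and 1 of 9 in each of sets 1 and 3, and the median log2 difference was -0.15, 0.61 and -0.30 in sets 1, 2 and 3. The NADH dehydrogenase subunit gene deposited as mt_ND5 was at 20.6, 53.9 and 17.0 CPM in GP/M 1, 2 and 3, against 22.8, 18.3 and 25.6 CPM in WT 1, 2 and 3, where GP/M 2 stood above the other 5 libraries. The cytochrome oxidase gene mt_CoI was far steadier, at 4271, 4722 and 4400.3 CPM in GP/M 1, 2 and 3, against 4679.8, 4246 and 4601 CPM in WT 1, 2 and 3. Its differences ran in the same directions over the sets, at 0.913, 1.11 and 0.956-fold. Libraries were made from polyA-selected RNA, per the labels.

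GstD2, another glutathione transferase gene, was at 3.92, 3.06 and 3.60 CPM in GP/M 1, 2 and 3, against 9.84, 7.13 and 3.18 CPM in WT 1, 2 and 3. WT 1 and WT 2 were high and the other 4 libraries low, so GP/M was lower in sets 1 and 2 and not in set 3. CG14499 was at 3.42, 10.9 and 27.0 CPM in GP/M 1, 2 and 3, against 8.21, 3.92 and 8.67 CPM in WT 1, 2 and 3, lower in set 1 and higher in sets 2 and 3. Kr-h1, the zinc finger gene that responds to juvenile hormone, was at 109, 85.3 and 137 CPM in GP/M 1, 2 and 3, against 104, 97.0 and 56.0 CPM in WT 1, 2 and 3. WT 3 was the lowest library and GP/M 3 the highest.

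**Figure D4:**
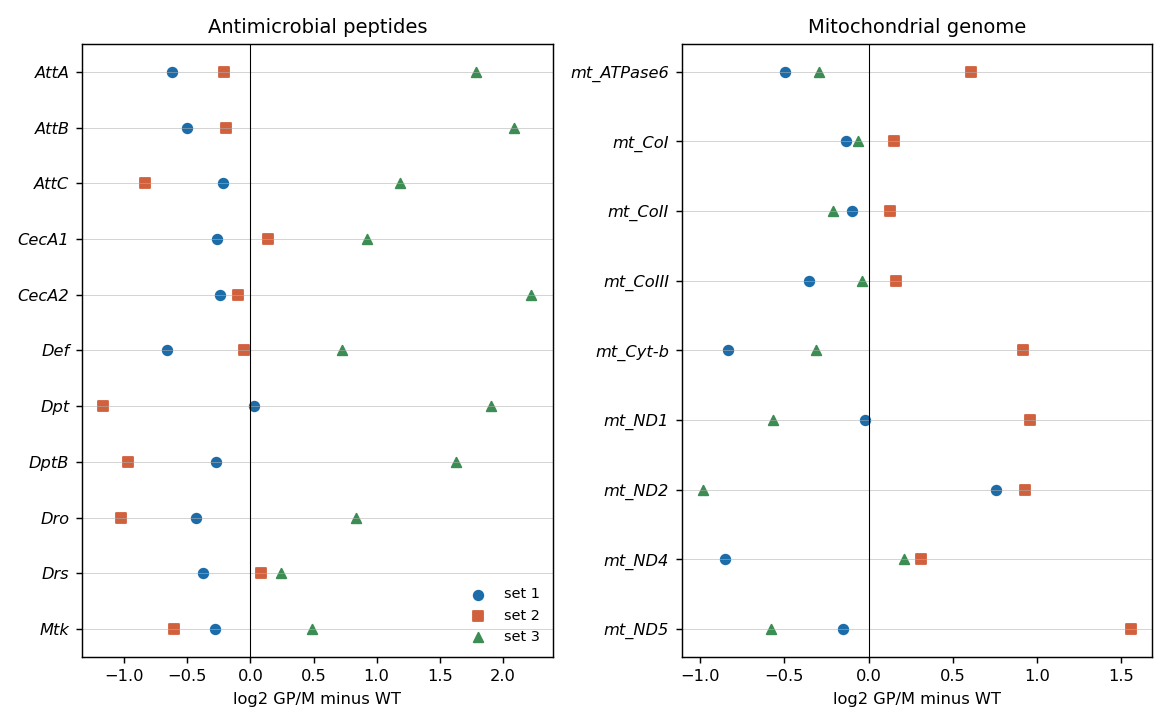
Log2 difference of GP/M minus WT in sets 1, 2 and 3 (horizontal axes) for 11 antimicrobial peptide genes (left) and 9 genes of the mitochondrial genome (right), with 1 symbol per set. All 11 antimicrobial genes lie right of 0 in set 3, and all 9 mitochondrial genes lie right of 0 in set 2.

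Gene lists of pathways, complexes and tissues stayed close to 1. Over all 11742 genes, 6019 were above WT and 5723 below. Of 41 lists, 39 had a median within 0.06 of 0 on the log2 scale, and 9 had a median of the same sign in all 3 sets. Of 23 genes of heat shock proteins and chaperones, which fold other proteins, 20 were above WT, 11 of them in all 3 sets (10.2% of all genes were) and 2 below WT in all 3, with a median of 1.02-fold. Hsp23, a small heat shock protein gene, was at 41.0, 40.9 and 37.9 CPM in GP/M 1, 2 and 3, against 36.7, 37.6 and 36.3 CPM in WT 1, 2 and 3, with the groups apart at 1.08-fold (unadjusted p = 0.0426, edgeR). The endoplasmic reticulum chaperone gene Hsc70-3 and the Hsp90 gene Hsp83 were at 1.05-fold and 1.04-fold, with overlap. Of 27 sarcomere and flight muscle genes, 6 were higher in all 3 sets and 0 lower, with a median of 1.03-fold. At an unadjusted p under 0.05 (edgeR), 3 of the 27 were higher and 0 lower (1.34% and 1.62% of all genes were). Beside Act88F, these were the myosin light chain kinase gene Strn-Mlck (1.09-fold) and the troponin C gene TpnC4 (1.07-fold).

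Lists of translation, respiration and neurons lay slightly below 1. For all 11742 genes the split was 5723 below WT and 6019 above. Of 93 cytosolic ribosomal protein genes, 71 were below WT, 21 of them in all 3 sets (11.6% of all genes were) and 1 above in all 3, with a median of 0.986-fold. RpS21 was at 279, 277 and 259 CPM in GP/M 1, 2 and 3, against 321, 294 and 261 CPM in WT 1, 2 and 3, 0.867, 0.943 and 0.991-fold over the sets. Set 1 was highest and set 3 lowest in both groups. Of 81 nuclear genes of the respiratory chain 58 were below WT, 20 in all 3 sets (24.7%), and 3 were above in all 3. Their median was 0.987-fold, but the set medians were -0.03, 0.02 and -0.05. Of 45 proteasome genes 14 were lower in all 3 sets (31.1%) and 2 higher (4.44%). Their median was 0.990-fold, with set medians of -0.01, 0.01 and -0.04. Neuropeptide genes had 22 of 27 below WT, 7 in all 3 sets (25.9%) and 0 above in all 3, with a median of 0.965-fold. Proct, the proctolin gene, led them by p at 0.929-fold (unadjusted p = 0.0809, edgeR). Summed over the 29 neuropeptide genes listed, GP/M was below WT in set 1, at 3226 against 3488 CPM. In sets 2 and 3 the sum was above WT, at 3253 against 3147 CPM and 3155 against 3115 CPM. Of 20 neuron genes 16 were below WT, 5 in all 3 sets (25%), and 0 were above in all 3. Their median was 0.977-fold, with Syn, the synapsin gene, at 0.937-fold. Of 77 cytochrome P450 genes, 1 was higher and 8 lower at an unadjusted p under 0.05 (1.34% and 1.62% of all genes were). None of the genes in these lists passed adjustment in edgeR, other than TotA, TotC and h in their own lists. The members of a complex or tissue share libraries and regulation, so their counts are not independent.

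Energy metabolism beyond fat gave no called gene. Of 14 glycolysis genes, 2 were higher in all 3 sets (14.3%, against 10.2% of all genes) and 0 lower (11.6% of all genes were). Their median was 1.01-fold, with Gapdh2, a glyceraldehyde-3-phosphate dehydrogenase gene, at 1.03-fold. The 20 genes of the TCA cycle had a median of 0.998-fold, 18 of fatty acid oxidation 1.01-fold, and 12 of trehalose, glycogen and gluconeogenesis 1.00-fold. Of 14 amylase and maltase genes, which digest starch and sugars, 12 were below WT (5723 of all 11742 genes were). At an unadjusted p under 0.05, 2 of them were lower (1.62% of all genes were) and 0 higher. Their median log2 difference was 0.06, -0.02 and -0.17 in sets 1, 2 and 3, and without set 3 the fitted median was 0.02, against -0.04 with it. The 18 insulin signalling genes had a median of 1.00-fold. Ilp3, an insulin-like peptide gene of brain neurosecretory cells, was at 2.29, 2.02 and 1.41 CPM in GP/M 1, 2 and 3, against 2.55, 2.33 and 2.63 CPM in WT 1, 2 and 3. Its groups lay apart, with most of the difference in set 3, and the interval of 0.763-fold was 0.58 to 1.00. Ilp2, from the same cells, was at 0.994-fold (interval 0.881 to 1.12).

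Machinery that can carry information between generations gave no called gene. The 26 genes of chromatin repressors and activators had a median of 0.999-fold. In all 3 sets 1 was higher (3.85%, against 10.2% of all genes) and 2 were lower (7.69%, against 11.6%). In that list ph-p, a Polycomb group gene, was at 1.10-fold (interval 0.982 to 1.23). The 15 genes of the piRNA pathway, which silences transposons in the germ line, had a median of 0.981-fold. In all 3 sets 4 of them were lower (26.7%, against 11.6%) and 2 higher (13.3%, against 10.2%). The helicase gene spn-E had the highest fold change of that list, at 1.12-fold (interval 0.96 to 1.31). The 10 core genes of small interfering RNAs and microRNAs had a median of 1.01-fold. In all 3 sets 3 of them were lower (30%) and 1 was higher (10%). The highest fold change of that list was 1.07-fold, for r2d2, the partner of Dicer-2. In these 3 lists 0 genes had an unadjusted p under 0.05 (2.96% of all genes did). A further list of 245 genes was drawn by current symbols of non-coding RNA genes and pseudogenes, of which the deposited table classes 175 as non-coding RNA, 30 as pseudogenes and 40 as protein-coding. Of these genes, 1 was higher and 9 lower at that level (1.34% and 1.62% of all genes were), with a median of 0.996-fold. These are transcript levels of whole flies and say nothing of chromatin or small RNAs themselves.

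**Figure D5:**
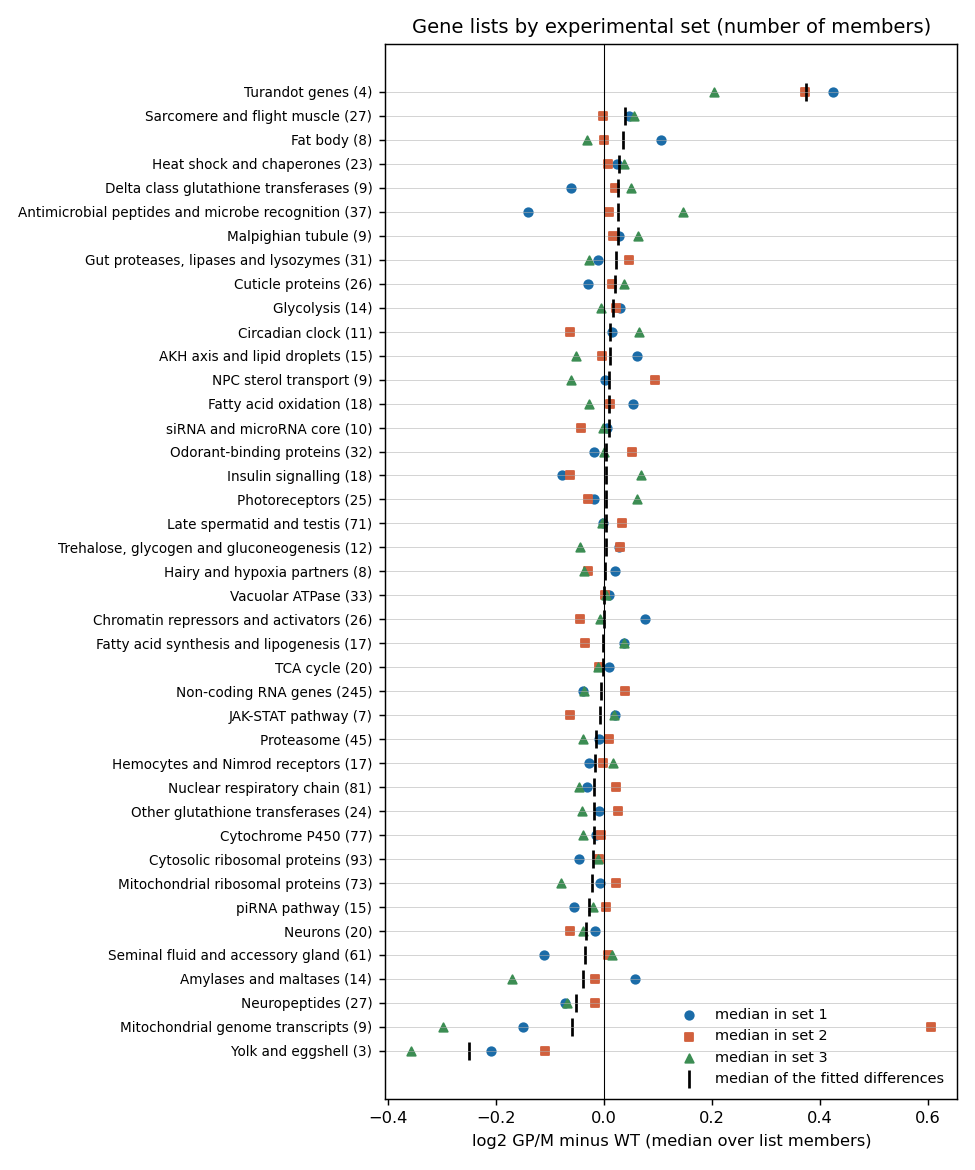
Median log2 difference of GP/M minus WT (horizontal axis) over the genes of 41 lists, with the number of genes in brackets, for sets 1, 2 and 3 (symbols) and for the fitted differences (black bars). The bars lie within 0.06 of 0 other than those of the Turandot and the yolk and eggshell genes, which have 4 and 3 members, and the symbols of the mitochondrial genome are the most spread.

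Most lists of tissue markers had medians whose sign changed between sets. Those of yolk and eggshell, neuron and Malpighian tubule genes kept their sign in all 3 sets. Over 61 seminal fluid genes the median log2 difference was -0.11, 0.01 and 0.02 in sets 1, 2 and 3. In all 3 sets 9 genes were lower (14.8%, against 11.6% of all genes) and 1 was higher (1.64%, against 10.2%). Sfp96F had the smallest p of them, at 22.7, 25.8 and 25.2 CPM in GP/M 1, 2 and 3, against 27.0, 32.5 and 25.7 CPM in WT 1, 2 and 3, lower in every set but by 0.842, 0.794 and 0.979-fold. Late spermatid and testis genes had a median of 1.00-fold over 71 genes, photoreceptor genes 1.00-fold over 25 and fat body genes 1.02-fold over 8. The yolk protein gene Yp3 was at 10.4, 9.18 and 10.5 CPM in GP/M 1, 2 and 3, against 11.7, 10.7 and 13.4 CPM in WT 1, 2 and 3, with the groups apart at 0.84-fold (unadjusted p = 0.00672, edgeR). Vitelline membrane genes of the ovary were at or near 0 in 5 libraries and present in WT 3. Vm26Aa had 0, 0 and 2 counts in GP/M 1, 2 and 3, against 0, 0 and 58 counts in WT, and Vm26Ab 2, 3 and 1 counts in GP/M, against 0, 1 and 23 counts in WT. WT 3 was also the highest library for Yp1 and Yp3. The part of such RNA in the lower yolk values was not tested. Without set 3 the log2 difference of Yp3 was -0.19, against -0.25 with it.

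By chromosome, the median difference was within 0.01 of 0 on the log2 scale for arms X, 2L, 2R, 3L, 3R and chromosome 4. The 5 genes on the Y chromosome had a median of -0.11, and 0 had an unadjusted p under 0.05. In all 3 sets 3 of them were lower (11.6% of all genes were). Their set medians were -0.22, -0.05 and -0.07 in sets 1, 2 and 3.

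Descent from an obese grandfather through his son (GP/P, 3 further libraries) is the other line of the series. The values that follow were scaled over all 9 libraries, and both lines share the same WT libraries. TotC was at 139.5, 144 and 167 CPM in GP/P 1, 2 and 3, against 156, 103 and 138 CPM in WT 1, 2 and 3, so that set 1 was below its WT partner and sets 2 and 3 above it. TotA was likewise below WT in set 1 alone, at 331, 383 and 443 CPM in GP/P 1, 2 and 3, against 398, 285 and 395 CPM in WT 1, 2 and 3. The GP/P values of h were above WT in all 3 sets, at 134, 131 and 204.6 CPM in GP/P 1, 2 and 3, against 112, 128 and 142 CPM in WT 1, 2 and 3. ACC was above WT in all 3 sets too, at 664, 543 and 673 CPM in GP/P 1, 2 and 3, against 489, 507 and 654 CPM in WT 1, 2 and 3. GP/M over GP/P, a comparison added after the data were seen, was 1.16-fold for TotC (interval 0.599 to 2.25), 1.17-fold for TotA (0.601 to 2.28), 1.01-fold for h (0.731 to 1.40) and 1.06-fold for ACC (0.874 to 1.28), with adjusted p from 0.934 to 0.991 in edgeR. Of 12864 genes 1 was called between the lines (0.00777%), Fst, a gene of the cold response. For TotC, TotA, h and ACC, neither a difference between the lines nor likeness was shown.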

How the data were processed

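PolyA-selected RNA of whole flies was sequenced, per the labels' protocols. Raw read counts of genes by library were deposited by the authors, per the file headers, and the fits start from them. The authors also deposited log2 fold changes, p-values and adjusted p-values for each comparison, quoted only as theirs. Not used were 18 columns of signal values, counts that the authors divided by size factors, and their score columns (standard error and Wald statistic), per the file headers. The submitters' processing notes name Novoalign, DESeq and build dm3. Strand and multiply mapped reads are not described in the sources used here. Coordinates are left out, since the annotation used for names has a different build.

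Counts of GP/M and WT were fitted with edgeR 4.0.16 in R 4.3.3 (TMM, filterByExpr by group, robust quasi-likelihood F-test) with the replicate number as a block, and p-values were Benjamini-Hochberg adjusted over the 12849 genes tested. Within-set differences are of log2 CPM with a prior count of 2. Library codes shared by the column names and the sample descriptions assigned columns to libraries. Numbers were taken to pair libraries because the design text gives each experiment its set and the headers hold a matching set code. Deviations of libraries from their group's mean correlated at 0.427, 0.143 and 0.423 across 11742 genes for libraries of the same number, and at -0.400 to 0.068 for others. Deviations within a group sum to 0, so positive values for the same number push the others down, and the contrast is partly built in. The 0.143 of set 2 was not far above the 0.068 of GP/M 2 with WT 1. The common biological coefficient of variation was 4.67% with the block and 7.23% without. The smallest chi-square per gene between libraries was 3.28, where copies would give about 1.

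Members and the 41 lists were chosen with earlier results of these data known. A rule picked the called genes, the 15 with the smallest p in each direction, the 5 with the largest fold change in each direction among those with an unadjusted p under 0.05 and the same sign in every set, the smallest p of each list, AkhR, Akh, bmm, Hsl and the 4 genes of the authors' table. The text names part of them. Outside the rule it adds further members of the lists it describes (such as TotX, Zw, Cyp4g1, Hsp83 and Ilp2), neighbouring genes, and genes with a difference in single sets (such as Dpt, mt_ND5, GstD2, CG14499 and Kr-h1), chosen after their values were seen. Alternatives were DESeq2 1.42.0, limma-voom (limma 3.58.1), other size factors and filters, other thresholds, no block, all 9 libraries and leaving out each set. Scripts were tested on simulated data. Symbols are as deposited, with current names added from the reference annotation.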

Additional observations from a re-analysis of the deposited data

How the results depend on the processing

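The replicate number was the block, and without the replicate block 0 genes were called higher, against 3 with it, and 62 genes were higher and 89 lower at an unadjusted p under 0.05, against 179 and 212. In a fit of all 9 libraries with the replicate block 0 genes were called. DESeq2 with the replicate block called 4 higher genes and 0 lower, with 25 higher and 13 lower at an unadjusted p under 0.05. Without the filter on low counts 4 genes were called higher and 1 lower; those added were CR43263, with 28, 29 and 0 counts in GP/M, against 0 in each WT library, and Vm26Aa. Leaving out each set in turn gave 0 to 5 genes higher and 0 to 3 lower, with 194 to 316 higher and 216 to 240 lower at an unadjusted p under 0.05. Without set 1, TotC, TotA and h were called with CG14499 (higher) and CG18609 (lower), without set 2 none was, and without set 3 TotC, TotA, TotX, mt_ND2 and CR43263 were called higher and GstD2, Acp70A and Mtk lower. The log2 fold change was 0.35 to 0.46 for TotC, 0.29 to 0.36 for TotA and 0.26 to 0.32 for h over these 3 fits. Limma-voom gave h an adjusted p of 0.162, and DESeq2 gave ACC one of 0.00949. The causes were not tested. The 1202 and 1359 genes with a direction kept in all 3 sets were 1258 and 1287 with DESeq2's size factors. Without 1 set, 9 to 11 of the 41 list medians changed sign; under the other size factors 3 did, all within 0.0013 of 0. With 3 libraries a group, the 95% interval of a gene with 50 to 200 counts reached a median of 1.19-fold to either side of its estimate.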
